A study of Mus musculus with 6 samples.

Results

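Plasmacytoid dendritic cells are known for releasing type I interferon when nucleic acids reach their endosomes, and this list follows 8 of the genes by which they are usually recognised, out of 53458 annotated genes quantified by RNA-seq in AML blasts. The genes, *Siglech*, *Ccr9*, *Tcf4*, *Spib*, *Pacsin1*, *Klk1*, *Tlr7* and *Tlr9*, were listed by symbol, and the reads of all their annotated transcripts were summed per mouse. The blasts came from 3 *Cebpa*-/p30 *Tet2*+/+ mice (mice 19, 23 and 24) and 3 *Cebpa*-/p30 *Tet2*-/- mice (mice 5, 7 and 8), all labelled as strain C57BL/6, with 1 library per mouse. Both groups thus carry a *Cebpa* allele that makes only the short p30 form of C/EBPα and lack the other allele, and the groups differ in *Tet2*, whose protein oxidises 5-methylcytosine. Per the methods of the study, conditional alleles were recombined with *Mx1*-Cre, which interferon induces in hematopoietic and other responsive cells, after transfer of donor marrow into irradiated recipients of the congenic strain C57BL/6J.SJL. Leukemic marrow was sorted for live donor cells without CD3, B220 or Ter119. Classical plasmacytoid dendritic cells carry B220, so the sort was set against them, as it was against B cells. The methods describe several recipients for each donor, and which of the 6 mice shared a donor is not given in the sources used here, so p-values measure only the spread between these mice.

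In the usual account of these cells, the E protein TCF4 (E2-2) directs their development and the ETS factor SPIB acts beside it. SIGLECH is a surface lectin that signals through the adaptor DAP12, encoded by *Tyrobp*, and CCR9 is the receptor for the chemokine CCL25. TLR7 and TLR9 sense single-stranded RNA and unmethylated CpG DNA in endosomes and signal through MYD88. PACSIN1 is an adaptor of membrane trafficking, and KLK1 is a tissue kallikrein. Several of these genes are not private to plasmacytoid dendritic cells: B cells use *Tcf4*, *Spib*, *Tlr7* and *Tlr9*, and monocytes and macrophages use *Tlr7* and *Tlr9*.

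The promoters of *Siglech* and *Tlr9* are shown because they stand at the extremes of the list, *Siglech* being the member whose levels did not overlap between genotypes in counts or TPM and *Tlr9* the one with the widest range over mice. Each sequence is the 250 bases before the transcript start in RefSeq for GRCm38.p6, read 5′ to 3′ on the strand of the gene. *Siglech* is at chr7:55767934-55768183 and *Tlr9* at chr9:106222348-106222597, both on the plus strand. Capitals mark the letters CANNTG (the E-box, bound by E proteins such as TCF4) and GAGGAA (the PU.1/SPIB box), searched on both strands.
Siglech: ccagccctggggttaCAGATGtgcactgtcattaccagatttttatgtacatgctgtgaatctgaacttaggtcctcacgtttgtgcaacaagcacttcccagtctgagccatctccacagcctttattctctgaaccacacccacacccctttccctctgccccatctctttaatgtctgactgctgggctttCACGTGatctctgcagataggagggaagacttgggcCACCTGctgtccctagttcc
Tlr9: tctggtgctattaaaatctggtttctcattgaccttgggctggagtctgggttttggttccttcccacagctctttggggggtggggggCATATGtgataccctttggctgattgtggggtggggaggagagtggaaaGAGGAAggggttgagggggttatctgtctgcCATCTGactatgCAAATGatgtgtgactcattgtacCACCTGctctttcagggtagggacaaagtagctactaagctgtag

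The *Siglech* window held 3 E-boxes, 0 GAGGAA boxes and 2 CpG dinucleotides. The *Tlr9* window held 4 E-boxes, 1 GAGGAA box and 0 CpG. It also held 1 match to the GATA letters AGATAA on the minus strand, left in lower case, which none of the other 5 windows did. Such matches are common, since 66.2% of 32851 promoters of the same length held an E-box, 23.3% GAGGAA and 9.99% AGATAA, so they are a description of the letters and not binding sites. Of the 6 members with a promoter in the table, *Ccr9*, *Spib* and *Klk1* had 2 E-boxes each and *Pacsin1* had 0. The CpG count of the window was 3 in *Ccr9*, 2 in *Spib*, 0 in *Klk1* and 26 in *Pacsin1*, beside a median of 6 over all promoters. The windows of *Tlr9* and *Klk1* were thus without CpG, as in 7.87% of promoters, and that of *Pacsin1* was CpG-rich, with 91.4% of promoters holding as many or fewer. The *Pacsin1* window, at chr17:27684989-27685238, lies inside the annotated gene, which begins at 27655509, so it is not the window before its first start. The C/EBP letters TTGCNNCAA, present in 1.74% of promoters, were found in none of the 6 windows.

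Levels are given as CPM (reads scaled to a common library total, with TMM normalization), and genotypes were compared by the quasi-likelihood test of edgeR, with p adjusted by the Benjamini-Hochberg method over 22170 genes. Libraries held between 13036643 and 32855343 estimated reads, and the biological coefficient of variation was 43.6%. Mouse 19 stood apart in erythroid markers (*Hbb-bs*, *Hbb-bt* and 5 others), which summed to 144 CPM there and to between 5.56 and 15.1 CPM in the other 5 mice. With edgeR no member was called with or without mouse 19, and DESeq2 was not run without it. *Tet2* itself, counted over the whole gene, was not lower in *Tet2*-/- blasts, with 73.6, 79.4 and 98.4 CPM in the *Tet2*+/+ mice and 111, 79.4 and 96.7 CPM in the *Tet2*-/- mice. The exons that the floxed allele removes are not given in the sources used here, so this level does not check the labels. Myeloid blast markers (*Mpo*, *Prtn3* and 6 others) summed to between 6645 and 8799 CPM in the 6 mice. None of these 8 passed an adjusted p with edgeR. *Mpo* and the progenitor marker *Cd34* lay lower in every *Tet2*-/- mouse than in any *Tet2*+/+ mouse (log2 fold changes -0.49 and -1.41) and *Ms4a3*, a marker of granulocyte and monocyte progenitors, lay higher (0.69), *Cd34* and *Ms4a3* being named after their values were seen. Their part in the results on the members was not tested. Monocyte and macrophage markers (*Adgre1*, *Ly6c2* and 6 others) summed to between 1626 and 2913 CPM in *Tet2*+/+ and between 2475 and 4755 CPM in *Tet2*-/- mice. *Ly6c2* took most of that sum in 5 of the 6 mice, and the other 7 markers summed to 662, 1486 and 577 CPM against 832, 351 and 2261 CPM, with overlap, a split made after the values were seen. Conventional dendritic cell markers (*Cd74*, *H2-Aa* and 8 others) summed to between 469.8 and 1034 CPM, T cell markers (*Trbc1*, *Cd4* and 6 others) to between 15.4 and 83.6 CPM and NK cell markers (*Nkg7*, *Klrb1c* and 4 others) to between 50.6 and 119 CPM, with overlap between genotypes in each list. Of the 10 conventional dendritic cell markers, 8 had a lower and 2 a higher fitted level in *Tet2*-/- blasts. With edgeR 1 was lower at an unadjusted p under 0.05, beside 5.12% of all tested genes, and none passed adjustment.

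The plasmacytoid dendritic cell genes were uneven in level. The 8 members summed to 65.3, 110 and 61.2 CPM in *Tet2*+/+ mice 19, 23 and 24 and to 107, 35.6 and 126 CPM in *Tet2*-/- mice 5, 7 and 8, and *Tlr7* with *Tlr9* made up between 59.5% and 85.2% of that sum, and between 75.2% and 90.8% of the sum in TPM. *Siglech*, *Ccr9*, *Pacsin1* and *Klk1*, the members not named above as used by B cells or by monocytes and macrophages, stayed at or below 2.41 CPM in every mouse. The list is therefore called here by its genes, and its summed level is not assigned to a cell type. The log2 ratio of the mean sums, *Tet2*-/- over *Tet2*+/+, was 0.19 in CPM and -0.26 in TPM (reads per effective transcript length, scaled to the same total in every mouse and not by TMM), and the genotypes overlapped on both scales. With 1 mouse left out the CPM value lay between -0.14 (without mouse 8) and 0.57 (without mouse 7).

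**Figure D1:**
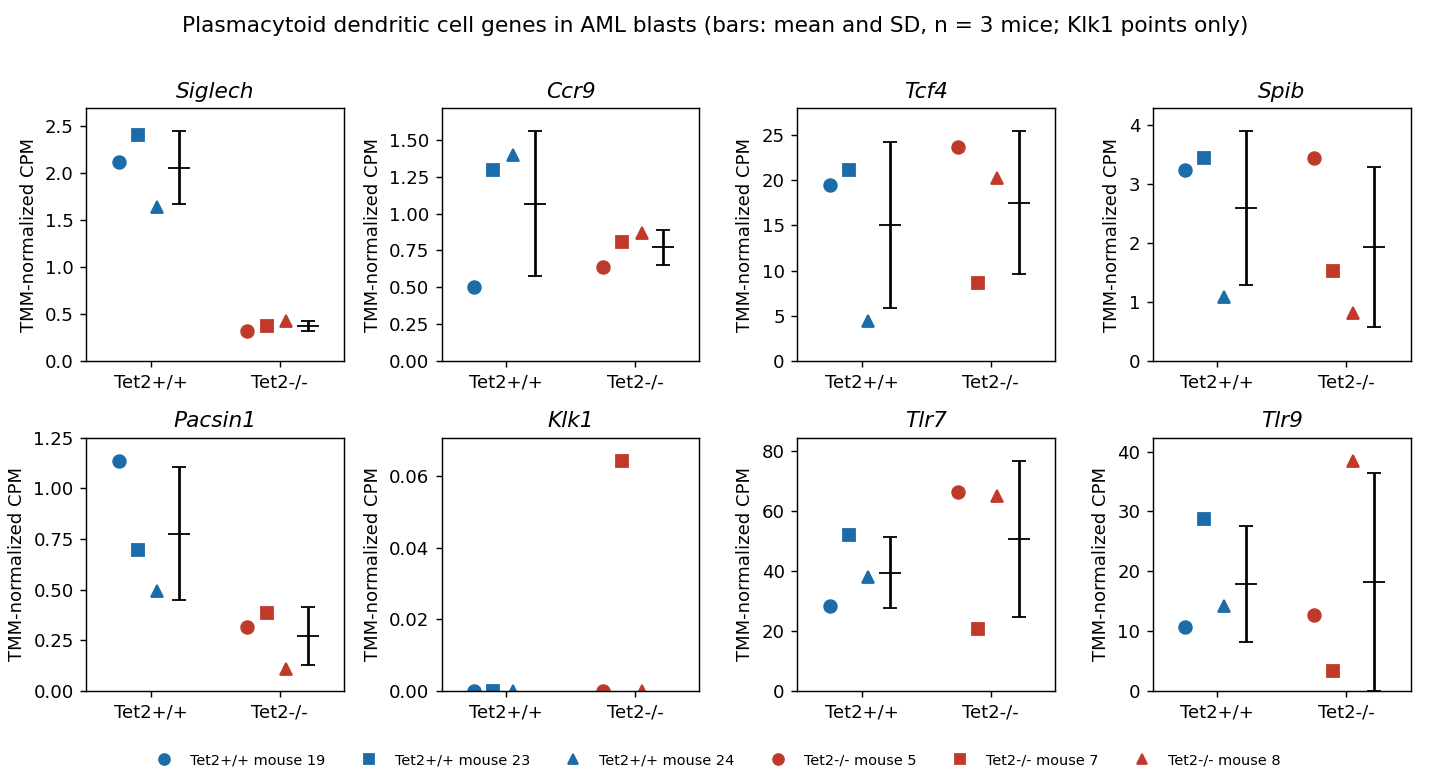
TMM-normalized CPM of each of the 8 plasmacytoid dendritic cell genes (vertical axis, a separate scale for each gene) in 3 *Tet2*+/+ mice (blue) and 3 *Tet2*-/- mice (red), with the mean and SD of each genotype in black where the gene was tested. In *Siglech* and *Pacsin1* every red point lies below every blue point, while in *Tcf4*, *Spib*, *Tlr7* and *Tlr9* mice of both genotypes reach high and low levels.

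Of the 7 members that passed the filter on low counts, 4 had a lower and 3 a higher fitted level in *Tet2*-/- blasts. None passed an adjusted p of 0.05 with edgeR in either direction, where 0.0451% of all tested genes were called lower and 0% higher. Before adjustment, 2 members had a p under 0.05, both lower in *Tet2*-/- blasts, beside 5.12% of all genes lower and 3% higher. The same 2, *Siglech* and *Pacsin1*, were below every *Tet2*+/+ mouse in every *Tet2*-/- mouse, which 8.02% of all tested genes were, and 6.36% were above. DESeq2, run on the same counts, called 1 member lower, *Siglech*, and 0 higher, beside 1.8% and 0.327% of the genes to which it gave an adjusted p. The median log2 fold change of the 7 tested members was -0.40 and that of all tested genes 0.0016.

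Among the surface receptors, *Siglech* had the largest fitted fold change of the tested members. *Siglech* (ENSMUSG00000051504, GRCm38 chr7:55768178-55778925, plus strand) had 2.12, 2.41 and 1.64 CPM in *Tet2*+/+ mice 19, 23 and 24, from 35.4, 44.9 and 23.3 reads, and 0.317, 0.372 and 0.430 CPM in *Tet2*-/- mice 5, 7 and 8, from 10.0, 5.8 and 7.9 reads. Every *Tet2*-/- mouse lay below every *Tet2*+/+ mouse, as did 7.74% of genes averaging 1 CPM or more, where 8.22% lay above. *Siglech* averaged 1.21 CPM over the 6 mice and reached that limit only through the *Tet2*+/+ mice. The 2 shares are therefore a description and not a test of its separation. Over all tested genes, without that limit, 8.02% lay below and 6.36% above. The means stood at 2.05 ± 0.388 CPM in *Tet2*+/+ and 0.373 ± 0.0568 CPM in *Tet2*-/- blasts (SD, n = 3 each), a 5.50-fold ratio. The log2 fold change was -2.42 with a standard error of 0.42 and a 95% interval from -3.42 to -1.42 (edgeR unadjusted p = 0.000685, adjusted p = 0.185), and the gene ranked 82 by p among all tested. The exact two-sided permutation test gave p = 0.1, the smallest that 3 mice against 3 allow. With DESeq2 the log2 fold change was -2.45 (adjusted p = 0.00104), so the call depends on the test. In TPM, which corrects for transcript length, the mice also did not overlap, with 0.595, 0.888 and 0.729 TPM against 0.0898, 0.114 and 0.126 TPM. In bulk RNA, fewer cells that express *Siglech* and less *Siglech* RNA per cell cannot be told apart.

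*Siglech* reads were too few to follow transcripts, with 8 annotated and 6 holding any read. No call was made for its partners. *Tyrobp*, the adaptor through which SIGLECH signals, had 594 ± 92.0 CPM (SD, n = 3) in *Tet2*+/+ and 670.1 ± 63.9 CPM (SD, n = 3) in *Tet2*-/- blasts. Of the other Siglec family members and adaptors, 9 of 10 were tested, and none had a p under 0.05 in either direction before adjustment. *Cd33* (mean 398 against 466 CPM) and *Siglecf*, a lectin of eosinophils, were the Siglec genes of highest TPM beside *Tyrobp*, and both overlapped between genotypes. Of 8 plasma cell markers 7 had a lower fitted level in *Tet2*-/- blasts, none past adjustment by edgeR. Before it 3 were lower with p under 0.05 (*Jchain* and, named after their values were seen, *Mzb1* and *Derl3*), beside 5.12% of all tested genes. DESeq2 called 2 of the markers, *Jchain* and *Mzb1* (DESeq2 adjusted p = 0.0491 for *Mzb1*). The 8 markers summed to between 278 and 379 CPM in *Tet2*+/+ and between 200 and 360 CPM in *Tet2*-/- mice. The marker with a higher fitted level, *Xbp1*, a factor of secretory cells, took much of that sum, at 134, 175 and 160 CPM against 298, 167 and 219 CPM. *Jchain*, the joining chain of secreted antibodies, had 98.4, 165 and 135 CPM against 44.1, 27.6 and 26.6 CPM, a log2 fold change of -2.02 with a standard error of 0.29 (edgeR adjusted p = 0.116, DESeq2 adjusted p = 2.03e-07). NK cell markers had a lower fitted level in 5 of 6 cases, 1 of them at an unadjusted p under 0.05. That gene, *Ncr1*, an activating receptor of NK cells named after its values were seen, had 4.49, 3.64 and 5.35 CPM against 1.42, 1.16 and 0.488 CPM, a log2 fold change of -2.12 with a standard error of 0.48 (edgeR adjusted p = 0.321, DESeq2 adjusted p = 0.00269). No marker of these 2 lists was at 0 in all mice, and their part in the *Siglech* result was not tested.

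*Ccr9* (ENSMUSG00000029530, chr9:123678439-123784330, plus strand), which guides cells to the thymus and small intestine, had few reads in both genotypes. It had 0.502, 1.30 and 1.40 CPM in *Tet2*+/+ mice 19, 23 and 24, from 8.4, 24.2 and 19.9 reads, and 0.636, 0.809 and 0.868 CPM in *Tet2*-/- mice 5, 7 and 8, from 20.1, 12.6 and 16.0 reads. Mouse 19 was the lowest of all 6, so the genotypes overlapped. The log2 fold change of -0.44 had a 95% interval from -1.68 to 0.79 (edgeR adjusted p = 0.865), and with 1 mouse left out it ran from -0.80 (without mouse 19) to -0.19 (without mouse 24). The kit did not mark strand, and the opposite-strand gene *AC165425.1*, at a mean of 0.199 CPM, covers 18.8% of the exon bases of *Ccr9*, so their reads could not be told apart there. The chemokine receptors besides *Ccr9*, with *Ccl25*, were all tested (17 of 17), and 1 was lower and 1 higher at an unadjusted p under 0.05 and none at an adjusted p. The lower one, *Ccr3*, a receptor of eosinophils named after its values were seen, was at most at 1.26 CPM. The 3 of highest TPM, *Cxcr4*, *Ccr2* and *Cxcr2*, which hold cells in the marrow or bring monocytes and neutrophils out of it, overlapped between genotypes, and *Cxcr4* ranged from 173 to 570.3 CPM and *Cxcr2* from 58.8 to 381 CPM. The receptor that was higher before adjustment, *Ccr1*, a receptor of inflammatory chemokines on myeloid cells, had 131, 151 and 138 CPM in *Tet2*+/+ and 275, 209 and 156 CPM in *Tet2*-/- mice without overlap (log2 fold change 0.61, edgeR adjusted p = 0.599).

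The transcription factors varied more between mice than between genotypes. *Tcf4* (ENSMUSG00000053477, chr18:69343356-69689079, plus strand) had 19.4, 21.2 and 4.45 CPM in *Tet2*+/+ mice 19, 23 and 24 and 23.6, 8.59 and 20.3 CPM in *Tet2*-/- mice 5, 7 and 8. Mice 24 and 7, of different genotypes, were the 2 low ones, and the highest and lowest mouse differed 5.31-fold. The means were 15.0 ± 9.19 CPM and 17.5 ± 7.90 CPM (SD, n = 3 each), with a log2 fold change of 0.22 and a 95% interval from -1.21 to 1.65 (edgeR adjusted p = 0.954). The sign rested on single mice, since the log2 fold change was -0.21 without mouse 24 and -0.06 without mouse 5.

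*Tcf4* has long forms, begun near the start of the gene, and shorter transcripts begun far inside it. Of 62 annotated transcripts 25 held reads, and those starting within the first 10 kb of the gene took 82.3%, 88.0% and 74.3% of the *Tcf4* reads in *Tet2*+/+ mice 19, 23 and 24 and 79.4%, 77.6% and 76.1% in *Tet2*-/- mice 5, 7 and 8. Those starting more than 200 kb into the gene took 16.8%, 11.5% and 21.3% against 20.5%, 22.4% and 23.9%. The long forms thus held most reads in every mouse, and both shares overlapped between genotypes. Much of the late-starting class is annotated as retained intron, above all *Tcf4-214*, with 12.8%, 9.02% and 14.4% of the *Tcf4* reads against 6.83%, 14.6% and 8.40%. With retained introns left out, a choice made after the values were seen, the late-starting transcripts held 3.68%, 2.18% and 5.23% in the *Tet2*+/+ mice, from 12, 8.6 and 3.3 reads, and 11.4%, 5.82% and 12.9% in the *Tet2*-/- mice, from 85.6, 7.8 and 48.4 reads. These values did not overlap between genotypes, but the closest ones, in mice 24 and 7, came from 3.3 and 7.8 reads. How often transcript shares of other genes separate in this way was not counted. No share of *Tcf4* was tested, since mouse 24 had only 63.2 *Tcf4* reads.

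The genes that set how much E protein is free to act gave no call. The E protein *Tcf3* (E2A) had 88.6, 85.5 and 91.4 CPM in *Tet2*+/+ and 91.7, 78.1 and 74.0 CPM in *Tet2*-/- mice. *Id2*, an inhibitor that binds E proteins and opposes the plasmacytoid fate, had 190, 273 and 265 CPM against 126, 199.5 and 126 CPM. Mouse 7 of *Tet2*-/- overlapped with mouse 19 of *Tet2*+/+, and the log2 fold change of *Id2* was -0.69 with a standard error of 0.25 (edgeR unadjusted p = 0.0298, adjusted p = 0.591). It was the 1 lower gene of the 5 tested among the 6 other E and Id protein genes at an unadjusted p under 0.05, and none was higher. *Id1* ranged from 21.3 to 93.9 CPM with mouse 7 highest.

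*Spib* (ENSMUSG00000008193, chr7:44525993-44532071, minus strand) had 3.24, 3.44 and 1.09 CPM in *Tet2*+/+ mice 19, 23 and 24, from 54.1, 64.3 and 15.5 reads, and 3.44, 1.54 and 0.814 CPM in *Tet2*-/- mice 5, 7 and 8, from 108.9, 23.9 and 15.0 reads. Mice 19, 23 and 5 were high and the other 3 low, so that each genotype held both. The log2 fold change was -0.40 with a 95% interval from -1.97 to 1.17 (edgeR adjusted p = 0.909). With 1 mouse left out it ran from -1.13 (without mouse 5) to -0.04 (without mouse 8). The B cell marker *Cd79a*, a signalling chain of the B cell receptor, was the gene most like *Spib* in its pattern, with 9.69, 12.2 and 3.80 CPM against 10.5, 2.96 and 2.17 CPM. B cell markers (*Cd79a*, *Cd79b* and 5 others) had a lower fitted level in 6 of 7 cases, none with an unadjusted p under 0.05, and summed to between 24.4 and 85.3 CPM in *Tet2*+/+ and between 23.2 and 63.8 CPM in *Tet2*-/- mice. None of the 7 was at 0 in all mice, and their part in the *Spib* level was not tested. The sort left out cells with B220, which most B cells carry. The related ETS factor *Spi1* (PU.1), a regulator of the myeloid lineage, was present at between 291 and 512 CPM, and *Spic*, a factor of iron-recycling macrophages, at between 0.488 and 5.12 CPM.

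*Tlr7* had the highest TPM of the members in every mouse, while *Tlr9* and *Tcf4* changed places between mice. *Tlr7* (ENSMUSG00000044583, chrX:167304929-167330558, minus strand) had 28.2, 51.9 and 38.0 CPM in *Tet2*+/+ mice 19, 23 and 24 and 66.4, 20.6 and 64.9 CPM in *Tet2*-/- mice 5, 7 and 8. The *Tet2*-/- mice included the 2 highest and the lowest level. The means were 39.4 ± 11.9 CPM and 50.6 ± 26.0 CPM (SD, n = 3 each), with a log2 fold change of 0.36 and a 95% interval from -0.70 to 1.42 (edgeR adjusted p = 0.872). With 1 mouse left out it ran from 0.10 (without mouse 5) to 0.73 (without mouse 7), and the sign turned to -0.19 with edgeR on length-scaled counts, made from TPM.

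The reads of *Tlr7* came mostly from 1 transcript. *Tlr7-201*, 3776 bases long, took 76.0%, 75.2% and 91.4% of the reads in *Tet2*+/+ mice 19, 23 and 24 and 82.5%, 89.0% and 87.4% in *Tet2*-/- mice 5, 7 and 8, a share that overlapped between genotypes (exact two-sided permutation test, p = 0.4). Its level was 3.52, 7.28 and 6.26 TPM against 8.97, 2.98 and 9.82 TPM. The short non-coding transcript *Tlr7-206*, of 261 bases, took at most 2.56% of the reads but stood at 30.5 TPM in mouse 23, at 15.3 TPM in mouse 8 and between 1.84 and 8.24 TPM in the other 4 mice. The gene total was 11.6, 43.7 and 13.7 TPM against 20.0, 6.44 and 28.9 TPM, so that few reads of a short transcript made up a large part of *Tlr7* on the TPM scale, in mice of both genotypes.

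**Figure D2:**
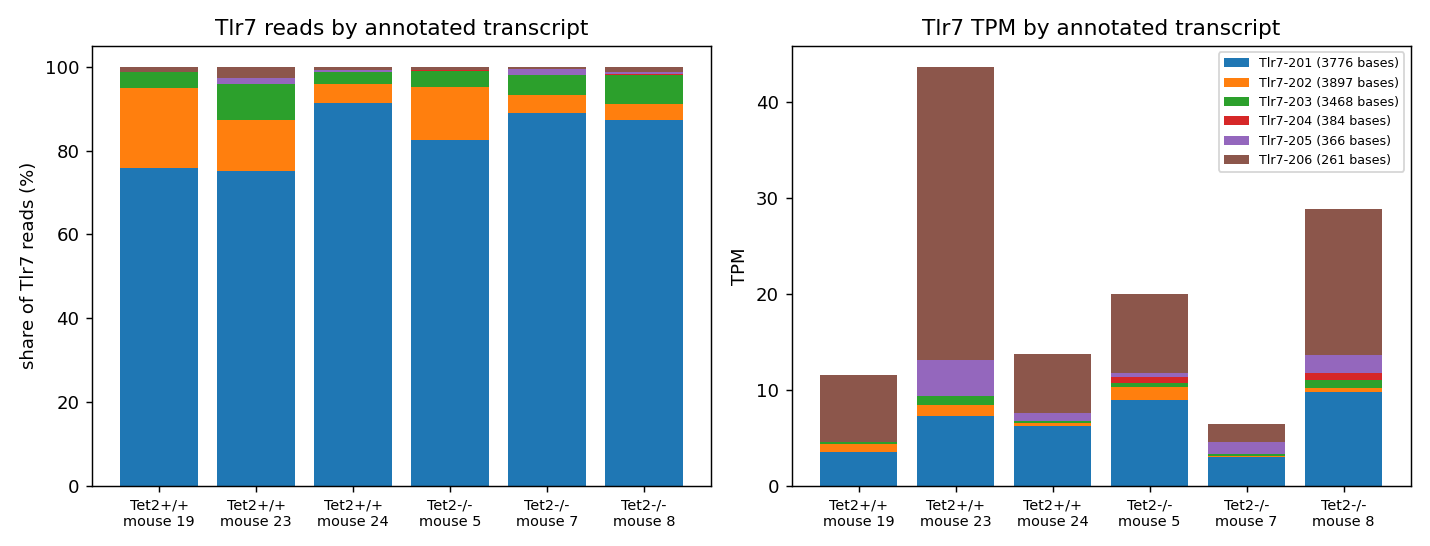
Share of *Tlr7* reads in percent (left) and TPM (right) of the 6 annotated *Tlr7* transcripts, stacked for each mouse. *Tlr7-201* holds at least 75.2% of the reads in every mouse, while *Tlr7-206* reaches 30.5 TPM in *Tet2*+/+ mouse 23 from at most 2.56% of the reads.

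*Tlr9* (ENSMUSG00000045322, chr9:106222598-106226883, plus strand) had the widest range of the members above 1 CPM. It had 10.6, 28.8 and 14.2 CPM in *Tet2*+/+ mice 19, 23 and 24 and 12.7, 3.28 and 38.5 CPM in *Tet2*-/- mice 5, 7 and 8. *Tet2*-/- mice 8 and 7 were the highest and the lowest of all, 11.7-fold apart. The means were 17.8 ± 9.65 CPM and 18.1 ± 18.2 CPM (SD, n = 3 each), a log2 fold change of 0.02 with a 95% interval from -1.86 to 1.91 (edgeR adjusted p = 0.998). Without mouse 8 it was -1.16 (edgeR adjusted p = 0.630), so no direction is given for *Tlr9*. Over the 6 mice, Pearson's r between *Tlr7* and *Tlr9* on log2 CPM was 0.82, the highest of the 10 pairs among the 5 members averaging 1 CPM or more. It is a description over 6 libraries that share their depth and cell content between the genes.

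The pathway around *Tlr7* and *Tlr9* was well expressed in these blasts. All 27 listed genes of endosomal TLR transport, processing and signalling were tested, 19 with a higher fitted level in *Tet2*-/- blasts, and 2 were higher and 0 lower with p under 0.05 before adjustment, none after it. Their median log2 fold change was 0.21. *Tlr13*, an endosomal sensor of bacterial ribosomal RNA, had 66.5, 62.6 and 53.1 CPM in *Tet2*+/+ and 129, 116 and 127 CPM in *Tet2*-/- mice. Every *Tet2*-/- mouse lay above every *Tet2*+/+ mouse, with a log2 fold change of 1.03 and a standard error of 0.16 (edgeR adjusted p = 0.140, DESeq2 adjusted p = 7.86e-07). Whether *Tlr13* differed from *Tlr7* and *Tlr9* in its change was not tested, and its value lies within the intervals of both.

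*Myd88*, the adaptor shared by these receptors, had 80.9, 80.3 and 64.6 CPM in *Tet2*+/+ and 112, 101 and 96.7 CPM in *Tet2*-/- mice, again without overlap (log2 fold change 0.46, standard error 0.16, edgeR unadjusted p = 0.0253, adjusted p = 0.584). *Irak4*, the kinase that MYD88 recruits, did not overlap either, at 73.3 ± 9.46 CPM against 92.8 ± 8.81 CPM (SD, n = 3 each, edgeR adjusted p = 0.654). The chaperone *Hsp90b1* (gp96), which folds these receptors, the transporter *Slc15a4* and the protease *Ctsb*, among the genes of highest TPM in the list, overlapped between genotypes. The monocyte and macrophage markers, whose summed level is given above, had a higher fitted level in 7 of 8 cases, and their part in the TLR pathway levels was not tested.

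*Pacsin1* (ENSMUSG00000040276, chr17:27655509-27711482, plus strand) had 1.14, 0.696 and 0.493 CPM in *Tet2*+/+ mice 19, 23 and 24 and 0.316, 0.386 and 0.109 CPM in *Tet2*-/- mice 5, 7 and 8. These values came from 19, 13 and 7 reads against 10, 6 and 2 reads. The genotypes did not overlap, with means of 0.775 ± 0.329 CPM and 0.270 ± 0.144 CPM (SD, n = 3 each) and a log2 fold change of -1.50 with a 95% interval from -2.97 to -0.03 (edgeR unadjusted p = 0.0461, adjusted p = 0.608). The DESeq2 adjusted p was 0.572. With edgeR on length-scaled counts the log2 fold change was -0.10, and in TPM the mice overlapped, at 0.133, 0.102 and 0.116 TPM against 0.115, 0.139 and 0.0290 TPM. The separation of the genotypes in *Pacsin1* was thus seen in counts and not in TPM.

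Its ubiquitous relative *Pacsin2* lay higher in every *Tet2*-/- mouse than in any *Tet2*+/+ mouse. It had 170, 122 and 98.9 CPM against 189, 209 and 203 CPM, a log2 fold change of 0.62 with a standard error of 0.22 (edgeR unadjusted p = 0.0272, adjusted p = 0.588). *Pacsin3*, the form of muscle, stayed at or below 0.535 CPM.

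*Klk1* (ENSMUSG00000063903, chr7:44225360-44229618, plus strand) was at 0 reads in 5 mice and at 1 read in *Tet2*-/- mouse 7, so it was not tested. A count of 0 allows up to 3 reads, which is between 0.0949 and 0.211 CPM in these libraries. This floor covers counting error only. Transcripts of *Klk1* match *Klk1b5* closely (2 of them at 95% identity or more over at least 50% of their length), so reads could be split between these genes. The cluster around it was as quiet, with 18 of 25 other kallikrein genes at 0 in every mouse and 3 passing the filter. Of these, *Klk8* had 0.598, 0.696 and 0.493 CPM against 0.348, 0.322 and 0.163 CPM (edgeR adjusted p = 0.654), and *Klk1b11* and *Klk1b27* stayed at or below 0.422 CPM.

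**Figure D3:**
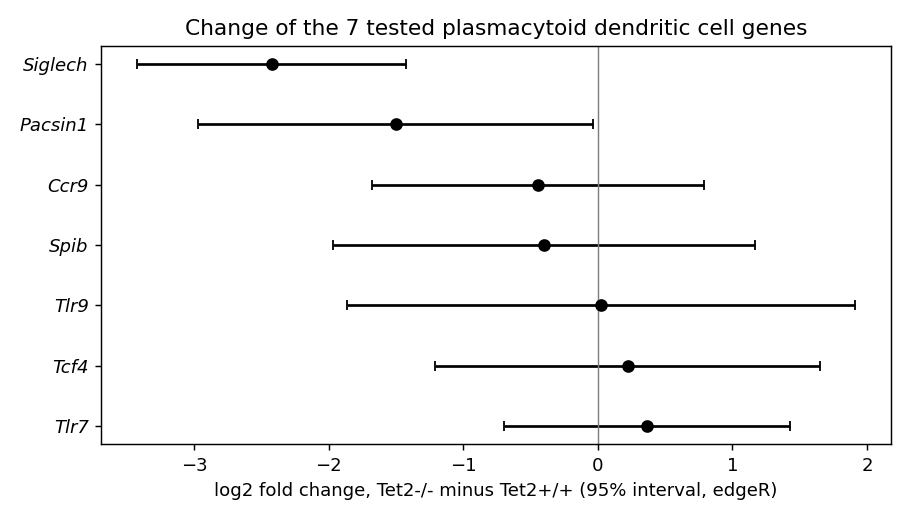
Log2 fold change of the 7 tested plasmacytoid dendritic cell genes, *Tet2*-/- minus *Tet2*+/+, with 95% intervals from edgeR. The intervals of *Siglech* (-3.42 to -1.42) and *Pacsin1* (-2.97 to -0.03) lie below 0, and those of the other 5 genes include 0.

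Compared per length, the order of the members by mean TPM over the 6 mice was *Tlr7* (20.7 TPM), *Tlr9* (2.92 TPM), *Tcf4* (2.43 TPM), *Spib* (0.613 TPM), *Siglech* (0.424 TPM), *Ccr9* (0.149 TPM), *Pacsin1* (0.106 TPM) and *Klk1* (0.0103 TPM). *Tlr7*, at 6.44 to 43.7 TPM, was the one gene whose range lay wholly above that of its neighbour *Tlr9*, at 0.488 to 6.11 TPM. Counted by *Tlr7-201* alone, at 2.98 to 9.82 TPM, *Tlr7* was still above *Tlr9* within each mouse, although the ranges then overlapped. Every other pair of neighbours in the order overlapped over the 6 mice. In *Tet2*+/+ mice *Siglech* was at 0.737 ± 0.147 TPM and *Spib* at 0.747 ± 0.435 TPM, and in *Tet2*-/- mice at 0.110 ± 0.0184 TPM and 0.478 ± 0.425 TPM (SD, n = 3 each).

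Genes that accompany the members in plasmacytoid dendritic cells gave no common direction. Of 28 such companion genes 27 were tested, 16 with a lower and 11 with a higher fitted level in *Tet2*-/- blasts. Before adjustment 3 were lower and 3 higher at p under 0.05, none after it, and their median log2 fold change was -0.17. The lower *Cbfa2t3* (ETO2), a corepressor that restrains conventional dendritic cell genes, had 58.3, 74.0 and 43.0 CPM against 36.0, 27.4 and 37.0 CPM without overlap (log2 fold change -0.80, edgeR unadjusted p = 0.0123, adjusted p = 0.506). The other 2 lower genes, *Bcl11a* and *Dntt*, overlapped between genotypes and are named after their values were seen. *Bcl11a*, a factor upstream of *Tcf4* in this lineage, was at 11.7 CPM in mouse 19 and between 0.271 and 1.71 CPM in the other 5 mice. *Dntt*, the DNA polymerase of lymphoid progenitors, was at most at 1.34 CPM.

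The 3 higher companions did not overlap between genotypes, and each is also used by myeloid cells. *Nfil3*, a basic leucine zipper factor, had 30.2, 18.3 and 17.8 CPM against 56.8, 42.2 and 32.0 CPM (log2 fold change 0.98, edgeR unadjusted p = 0.0137, adjusted p = 0.516). *Ly6c2*, a surface antigen of plasmacytoid dendritic cells and monocytes, had 1366 ± 292 CPM against 2537 ± 436 CPM (SD, n = 3 each). Its log2 fold change was 0.89 (edgeR unadjusted p = 0.0134, adjusted p = 0.512), and it was called by DESeq2 (adjusted p = 0.0250) but not by edgeR. *Atp1b1*, a subunit of the sodium pump, had 4.90, 2.33 and 5.73 CPM against 31.1, 18.6 and 9.33 CPM (log2 fold change 2.19, standard error 0.52, edgeR adjusted p = 0.344, DESeq2 adjusted p = 0.00499). These were the 2 companions that DESeq2 called, and both were opposite in direction to *Siglech*.

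Type I and III interferon genes, the main product of activated plasmacytoid dendritic cells, were nearly silent. Of 21 listed genes, 17 were at 0 in every mouse, and the 2 that were tested were the receptor genes *Ifnar1* and *Ifnar2*. *Ifna16*, the interferon gene of highest level, reached at most 0.0715 CPM, below the level of 3 reads in any mouse. *Ifnar1* ranged from 86.4 to 222 CPM and *Ifnar2* from 106 to 208 CPM, with overlap between genotypes.

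The pattern over mice was compared with that of 10581 other genes averaging 5 CPM or more, by Pearson's r of log2(CPM + 0.5) over the 6 libraries. Most like *Siglech* were *Mid1* (r = 0.997), at 23.5, 23.7 and 15.7 CPM against 4.48, 4.76 and 5.69 CPM, and *Rgs1* (r = 0.997), at 20.1, 20.3 and 16.0 CPM against 5.00, 5.98 and 5.91 CPM. Neither overlapped between genotypes, which follows from their choice by likeness to *Siglech* and adds nothing to its result. The closest genes to *Tcf4* were the pseudogene *Gm3788* (r = 0.989) and *Arpp19* (r = 0.985), and to *Spib*, besides *Cd79a* (r = 0.963), *Drc7* (r = 0.962). *Ganab* (r = 0.999) and *Polrmt* (r = 0.992) were closest to *Tlr7*, and *Dennd4c* (r = 0.998) to *Tlr9*. Likeness in r does not mean like size, since *Ganab* ran from 197 to 244 CPM while *Tlr7* ran from 20.6 to 66.4 CPM. These r values rank genes over 6 libraries, and none is a test.

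*Tlr9* was highest in mice 8 and 23 and lowest in mouse 7, and 19 of the 195 other listed genes were too, among them 6 of 27 genes of the endosomal TLR pathway, 6 of 28 companion genes and 4 of 8 monocyte and macrophage markers (*Csf1r*, *Cd68*, *Ccr2* and *Cx3cr1*). The last 2 of these also count as chemokine receptors, and *Pld4* counts in both the pathway and the companions. The 195 include 18 kallikrein and 17 interferon genes at 0 in every mouse, which could not show this order. Its share over all tested genes was not counted, so whether these counts exceed that share is not known. *Zeb2*, *Pld4* and *Ccr2* show this order. *Zeb2*, a factor of plasmacytoid dendritic cells and monocytes, was highest in mice 8 (326 CPM) and 23 (303 CPM) and lowest in mouse 7 (48.8 CPM). *Pld4*, an endosomal exonuclease that degrades TLR9 ligands, was at 483 and 320.2 CPM in the same 2 mice and at 38.2 CPM in mouse 7. *Ccr2*, the receptor that brings monocytes out of the marrow, was at 674 and 480.3 CPM there and at 38.6 CPM in mouse 7. The 3 were picked for display after their values were seen, and the high mice come from both genotypes. *Csf1r*, the receptor that marks monocytes, was at 749 and 465 CPM in mice 8 and 23 and at 87.4 CPM in mouse 7. *Csf1r*, *Cd68* and *Cx3cr1* are likewise named after their values were seen. The monocyte markers named by level did not show this order, since *Adgre1* was lowest in mouse 5 (128 CPM) and *Ly6c2* was highest there (2993 CPM). The part of monocyte content in the *Tlr9* level was not tested.

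**Figure D4:**
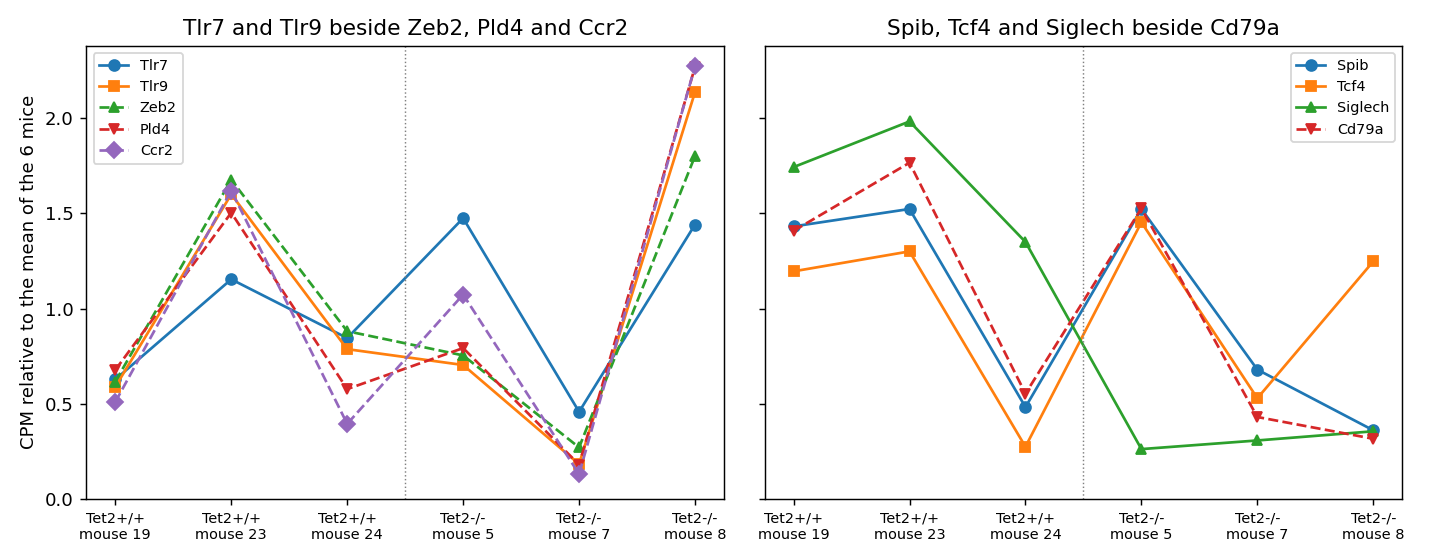
CPM of each gene relative to its own mean over the 6 mice (vertical axis), with members as solid and other genes as dashed lines, and a dotted line between the genotypes. In the left panel *Tlr9*, *Zeb2*, *Pld4* and *Ccr2* are high in mice 23 and 8 and low in mouse 7. *Tlr7*, in the same panel, is also lowest in mouse 7 but highest in mouse 5. In the right panel *Siglech* separates the genotypes while *Spib*, *Tcf4* and *Cd79a* do not.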

How the data were processed

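The authors sequenced unstranded TruSeq libraries of sorted blasts and quantified transcripts with Salmon 0.12.0 against Ensembl transcripts of GRCm38 (bcbio), per the labels and the methods. The estimated counts give reads per transcript as the authors deposited them, unscaled, and the deposited TPM values correct them for effective length and share a total in all mice. The estimated counts of 136288 transcripts were summed to GENCODE M21 genes and rounded, leaving out 112 transcripts without a gene (0.0307% to 0.0416% of reads). Genes reaching a sum of 10 after scaling to the mean library size were tested (22170 of 53458) with edgeR 4.0.16 in R 4.3.3 after TMM normalization, genotype alone being fitted to all 6 libraries, with Benjamini-Hochberg adjustment and a threshold of 0.05. The code was tested on simulated data. DESeq2 1.42.0, length-scaled counts, other filters and scalings, robust dispersion, limma 3.58.1 on log2(TPM + 1) and log2(TPM + 0.1), and leaving out each mouse were alternatives.

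Gene lists were written by hand. From each companion list the 3 genes of highest TPM, any with an adjusted p under 0.05, and up to 4 of the largest change without overlap at 1 CPM or more are named, with the 2 highest in TPM of each marker list and the 2 genes most like each of the 5 members averaging 1 CPM or more, of which 1 is not reported here; *Ccr9*, *Pacsin1* and *Klk1* were below that level. Other names are marked. The members and lists were chosen with earlier results of these data known. A motif was searched in the 250 bases before the start in RefSeq for GRCm38.p6. Shared sequence means a match of at least 95% identity over 50% of a transcript (BLAST+ 2.17.0). Python 3.11.15, pandas 2.3.3 and matplotlib 3.10.9 were used.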

Additional observations from a re-analysis of the deposited data

How the results depend on the processing

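*Siglech*, *Ccr9* and *Pacsin1* had under 50 reads in any library, and the limits of detection at this depth were not measured. No paired analysis was possible because the mouse numbers are not shared between genotypes. With edgeR no member was called under any filter, scaling, dispersion or left-out mouse. *Siglech* was called by DESeq2 on the same counts (log2 fold change -2.45) and on length-scaled counts (-2.67), which makes 1 member called lower in each. Without 1 mouse at a time its log2 fold change lay between -2.56 and -2.30, with an edgeR adjusted p between 0.258 and 0.535. Over all genes, 10 were lower and 0 higher with edgeR, against 325 lower and 59 higher with DESeq2 and 325 and 64 with DESeq2 on length-scaled counts. Length-scaled counts with edgeR gave 5 lower genes, no filter gave 62 lower and 4 higher, and filterByExpr and RLE factors gave 1 higher each. Leaving out each mouse gave between 0 and 7 lower genes (0 without mouse 5, 7 or 8).

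*Tcf4* lay between -0.21 and 0.55 with 1 mouse left out. *Tlr7* turned to -0.19 with edgeR and with DESeq2 on length-scaled counts, to -0.27 with limma on log2(TPM + 1) and to -0.30 on log2(TPM + 0.1). *Tlr9* was -4.8e-05 and -0.0029 with edgeR and DESeq2 on length-scaled counts, -0.0043 with filterByExpr, -0.12 when scaled by library size only, -0.28 and -0.55 with limma on the same TPM scales, and between -1.16 and 0.52 with 1 mouse left out. When scaled by library size only, the median over all genes was -0.17 away. The cause of these changes was not tested. *Siglech*, *Ccr9*, *Spib* and *Pacsin1* had a lower fitted level in *Tet2*-/- blasts under every alternative run for them, and filterByExpr removed *Pacsin1*.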
